A study of Mus musculus with 12 samples.

Results

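Mitochondrial ribosomal protein genes are nuclear genes that encode the protein subunits of the mitoribosome. They were taken here as every gene whose symbol is Mrpl or Mrps followed by a number and at most 1 letter, which gave 78 genes, 49 Mrpl and 29 Mrps, of the 35652 genes listed for cultured and fetal cells. All 78 were matched by Entrez ID in the tables of postnatal day 7, where Mrpl58 carries its older symbol Ict1. The choice used names and no measured value, although it was made with earlier results of these data known. Expression was measured in mouse by SC3-seq, which reads amplified cDNA at the 3' end of each transcript, with 6 groups of 2 libraries. The groups in vivo were male germ cells of the testis at E16 and E17, which are embryonic days 16 and 17, and at P7, which is day 7 after birth, all from animals of the genotype Vasa-RFPTg/0. The cultured groups were germline stem cells (GSCs), the spermatogonial stem cells of the testis kept in culture, and comprised 2 Stag3 KO lines, named KO1 and KO2, and wild type (WT). All cultured groups carried the transgenes of the line Acrosin-EGFP; beta-Actin-EGFP (AAG), so cells in vivo and in culture differed also in their transgenes. The series was designed to characterise cohesin that contains STAG3 in these cells. The labels do not say how the knockouts were made, whether a line is 1 clone, how germ cells were purified, or whether the replicates of a group came from different cultures or animals. The p-values therefore describe the spread among these libraries, which may be technical.

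The mitoribosome translates the few proteins encoded by mitochondrial DNA, which are core subunits of the respiratory chain and of ATP synthase. Its RNAs come from mitochondrial DNA, whereas all its proteins are made in the cytoplasm and imported, and many have no counterpart in bacteria. Its small subunit decodes the mRNA and its large subunit forms the peptide bond. Of the 78 genes, 29 were classed here as large-subunit genes with a bacterial homolog and 22 as large-subunit genes specific to mitochondria. The 22 include Mrps18a and Mrps30, whose names point to the small subunit. They also include Mrpl47, although its product, like that of Mrps18a, is related to a bacterial protein. A further 16 were classed as small-subunit genes with a bacterial homolog and 10 as small-subunit genes specific to mitochondria. Mrps36 was named as a subunit but its product belongs to the 2-oxoglutarate dehydrogenase complex, so it is given apart. The genes lie on 17 chromosomes, and 25 of them overlap another annotated gene. Whether reads were counted by strand is not given in the sources used here, so the values of those 25 are uncertain.

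The promoter windows of 4 members are shown because these genes had the largest rises and some of the largest falls between fetal germ cells and WT GSCs. Each window runs from 250 bases before to 50 bases after an annotated start, in the direction of transcription, and comes from RefSeq (GRCm38.p6). Capitals mark matches, on either strand, to 5 short motifs fixed by their letters: an ETS element bound by GABP (CCGGAAG), an NRF1 element (GCATGCGC), a YY1 element (AAGATGGC), an SP element (GGGCGG) and a MYC E-box (CACGTG). Mrpl23 lies on the plus strand, with its window at chr7:142532782-142533081. The window of Mrps18a, also on the plus strand, is chr17:46110754-46111053. Mrps2 has its plus-strand window at chr2:28467816-28468115. Mrpl21 has its plus-strand window at chr19:3282792-3283091. The windows of Mrpl23 and Mrps2 lie inside the gene spans given below, so each belongs to a start downstream of the gene's first base.
Mrpl23: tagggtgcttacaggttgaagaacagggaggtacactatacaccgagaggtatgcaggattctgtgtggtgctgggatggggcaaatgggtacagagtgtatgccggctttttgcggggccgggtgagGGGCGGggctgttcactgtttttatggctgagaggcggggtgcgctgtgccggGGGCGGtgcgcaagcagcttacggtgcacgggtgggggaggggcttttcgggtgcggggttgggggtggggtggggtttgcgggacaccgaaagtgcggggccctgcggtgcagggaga
Mrps18a: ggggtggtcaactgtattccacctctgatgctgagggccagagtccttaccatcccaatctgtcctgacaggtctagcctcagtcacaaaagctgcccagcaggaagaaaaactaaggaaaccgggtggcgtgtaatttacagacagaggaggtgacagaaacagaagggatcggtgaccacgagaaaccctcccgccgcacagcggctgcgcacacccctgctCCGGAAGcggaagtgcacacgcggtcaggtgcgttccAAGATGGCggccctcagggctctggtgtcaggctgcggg
Mrps2: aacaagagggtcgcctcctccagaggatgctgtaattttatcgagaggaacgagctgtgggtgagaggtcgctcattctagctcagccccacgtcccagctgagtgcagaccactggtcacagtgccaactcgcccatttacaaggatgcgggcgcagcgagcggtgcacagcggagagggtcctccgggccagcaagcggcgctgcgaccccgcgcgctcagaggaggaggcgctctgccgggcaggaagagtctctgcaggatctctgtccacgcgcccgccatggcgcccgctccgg
Mrpl21: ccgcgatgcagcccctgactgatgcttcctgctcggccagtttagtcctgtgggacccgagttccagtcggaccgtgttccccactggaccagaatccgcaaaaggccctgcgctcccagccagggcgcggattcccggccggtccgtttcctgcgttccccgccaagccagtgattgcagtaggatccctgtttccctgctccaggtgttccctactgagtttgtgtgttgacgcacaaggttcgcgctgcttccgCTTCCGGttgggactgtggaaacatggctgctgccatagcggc
The Mrpl23 window held 2 SP elements, the Mrps18a window held 1 ETS and 1 YY1 element, the Mrps2 window held none of the 5 motifs, and the Mrpl21 window held 1 ETS element. No motif overlaps another in these 4 windows.

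Windows were found for 69 of the 78 members, 75 windows in all because some genes have more than 1 start. No window was used for Mrpl4, Mrpl13, Mrpl15, Mrpl19, Mrpl38, Mrpl54, Mrps28, Mrps34 and Mrps35. An ETS element was present in 34.7% of the members' windows, against 8.86% of all 32851 windows of 27025 genes. The NRF1 element was present in 10.7% of the members' windows, against 2.71% of all windows. For the YY1 element the shares were 16% and 2.75%, for the SP element 52% and 35.7%, and for the E-box 9.33% and 7.15%. At least 1 of the 5 was present in 78.7% of the members' windows, against 44.4% of all windows. GABP, NRF1 and YY1 are known as regulators of nuclear genes for mitochondrial proteins. A match describes the letters of the window and not binding in these cells, and no test was made of these shares.

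Levels are given as reads of a gene per 1000000 reads of non-mitochondrial genes (RPM). Since each transcript is read at its 3' end, a gene's RPM is not divided by its length, and an order of genes by RPM is an order of reads. All 78 genes had reads in all 12 libraries, with 3 counts as the lowest value, and all were tested in every comparison. Mean RPM over the 12 libraries was lowest for Mrps28, a small-subunit protein with a bacterial homolog, at 16.5 RPM, and highest for Mrpl23, a homolog of a bacterial protein at the exit of the peptide tunnel, at 384 RPM. The median over the genes was 111 RPM, and 46 of the 78 genes reached 100 RPM. The median ratio of the highest to the lowest group mean was 2.17. This ratio was at least 2 for 44 genes, at least 4 for 17 and at least 10 for 3. The highest group mean was in E16 for 20 genes, in E17 for 8, in P7 for 8, in KO1 for 13, in KO2 for 14 and in WT GSCs for 15.

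**Figure D1:**
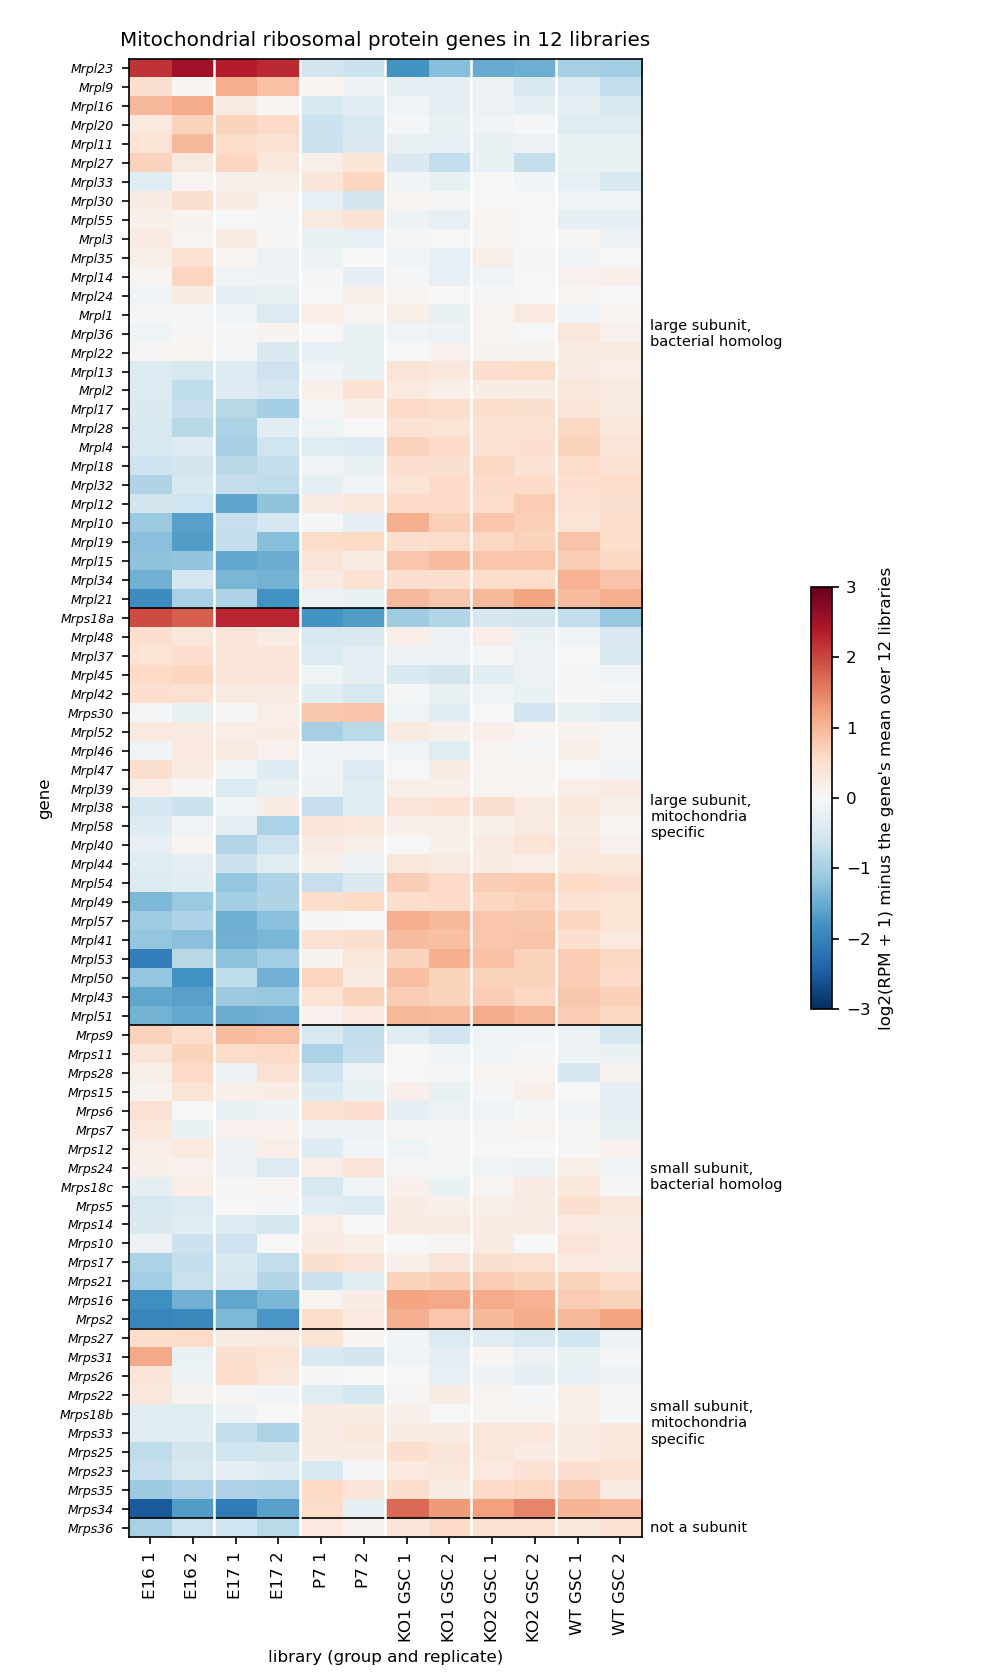
Level of each of the 78 genes in each of the 12 libraries, as log2(RPM + 1) minus the gene's mean over the libraries, with genes in rows grouped by class and libraries in columns. The 4 fetal libraries stand apart from the other 8 in both directions, and the 6 GSC libraries look alike.

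Total counts ranged from 1938644 to 4596607 per library, and a count of 3, the floor used here, corresponds to at most 1.73 RPM. This floor covers counting error only, whereas each SE below comes from the test and includes the estimated spread among libraries. Added ERCC RNA, a spike-in, took 1.22% to 1.52% of counts at E16 and 0.194% to 0.231% at E17. It took 4.69% to 5.85% at P7 and 2.80% to 3.41% in GSCs. Scaling by spike-ins therefore moves every gene of a comparison in vivo. Whether the amount of ERCC RNA added per cell was equal among the groups was not tested. Each direction below is given relative to the trimmed mean (TMM) scaling of edgeR unless another is named. Stag3 was at 295 and 304 RPM in KO1 and 137 and 152 RPM in KO2, against 385 and 420 RPM in WT GSCs. A 3' tag outside the altered part of the gene does not check a knockout. Germ cell markers summed to 2481 to 3752 RPM across all libraries, but single markers moved in both directions. Among the 7 germ cell genes tested, 3 were lower and 1 was higher in fetal cells than in WT GSCs under TMM scaling. Dazl was at 441 to 637 RPM in fetal libraries, against 1537 and 1786 RPM in WT GSCs. Mael was at 993 to 1377 RPM in fetal libraries, against 567 and 579 RPM in WT GSCs. Sertoli cell markers summed to 163 to 203 RPM in fetal libraries and 68.1 to 111 RPM at P7, against 32.9 to 35.9 RPM in WT GSCs. Clu was the largest part of the fetal sum, at 83.8 to 110 RPM. Of the 8 Sertoli genes tested, 5 were higher and 1 lower in fetal cells than in WT GSCs under TMM scaling. Wt1 was at 4.47 to 7.51 RPM in fetal libraries, against 12.7 to 16.1 RPM in WT GSCs. Erythroid markers summed to 56.6 to 241 RPM in fetal libraries, 11.8 to 82.5 RPM at P7 and 0 in GSCs. Amh, a defining Sertoli cell marker, was at 0 in all libraries. In such bulk samples fewer cells of a type and less RNA per cell cannot be told apart. The part of these other cells in the results below was not tested.

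Fetal germ cells were set against WT GSCs as the mean of E16 and E17, with 4 libraries against 2. Of the 78 genes, 43 fell and 17 rose under TMM scaling (quasi-likelihood test of edgeR, adjusted p under 0.05 by Benjamini-Hochberg), whereas with ERCC scaling none fell and 68 rose. Over all 15827 genes tested 74.2% passed, 32.3% were lower and 41.9% were higher, and the members' shares were 55.1% and 21.8%. Of the 15827 genes, 4592 fell and 7108 rose with library totals, and 158 fell and 14505 rose with ERCC scaling. The median log2 fold change of the members was -0.46, against 0.23 for all genes, and was 2.18 with ERCC scaling, which moved the median of all genes by 2.64. Of the 51 large-subunit genes 29 fell and 12 rose under TMM scaling, and of the 26 small-subunit genes 13 fell and 5 rose, whereas with ERCC scaling 44 and 23 of them rose and none fell. The count of genes that rose was 10 without WT replicate 2.

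Mrpl23 showed the largest rise. It lies on chromosome 7 from 142532467 to 142540747 (GRCm38.p6). It was at 873 and 1109.8 RPM at E16 and 992 and 912 RPM at E17, against 96.1 and 95.7 RPM in WT GSCs. All 4 fetal libraries were far above both WT libraries, and above every other library of the series. Its log2 fold change was 3.21 ± 0.13 (SE), with an adjusted p of 1.39e-22 (edgeR), and it was higher in fetal cells under every alternative tried. The one annotated gene within 10 kb, the non-coding Nctc1, lies 3862 bases away and had a count of 0 in all 12 libraries.

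Mrps18a encodes 1 of 3 relatives of the same bacterial small-subunit protein but sits in the large subunit. It lies on chromosome 17 from 46111004 to 46128908. It was at 373 and 334 RPM at E16 and 466 and 465 RPM at E17, against 57.2 and 42.9 RPM in WT GSCs. The fetal libraries were all above the WT libraries, with no overlap. The log2 fold change was 2.88 ± 0.12, with an adjusted p of 2.53e-21 (edgeR). Mrps18a overlaps Rsph9, a gene of the ciliary radial spoke, by 6871 bases. Rsph9 was at 26.8 and 20.8 RPM at E16 and 46.2 and 34.5 RPM at E17, against 5.99 and 7.48 RPM in WT GSCs, so its level was also higher in each fetal library but far below that of Mrps18a. Its relatives differed less: Mrps18b had a log2 fold change of -0.42 ± 0.11 with an adjusted p of 0.000642 (edgeR), and Mrps18c, at -0.30 ± 0.14, did not pass the test.

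The other genes that rose had smaller changes. Mrps9, a small-subunit protein with a bacterial homolog, was at 223 and 199.6 RPM at E16 and 265 and 256 RPM at E17, against 123 and 97.9 RPM in WT GSCs. Its fetal libraries were all above the WT libraries, and its log2 fold change was 0.95 ± 0.11 (adjusted p = 3.66e-09, edgeR). Mrpl20, a large-subunit protein that is needed early in assembly of the bacterial ribosome, was at 292 and 385 RPM at E16 and 380.3 and 358 RPM at E17, against 186 and 185 RPM in WT GSCs. These libraries did not overlap either, and the log2 fold change was 0.80 ± 0.11 (adjusted p = 6.82e-08, edgeR). Mrpl9 rose by 1.1, Mrpl16 by 0.86, Mrpl11, of the stalk base, by 0.69 and Mrps11 by 0.60 on the log2 scale. Mrps27, an RNA-binding subunit, rose by 0.63, Mrpl27 by 0.57, Mrpl48 by 0.51 and Mrpl37 by 0.49. These last 4 calls depended on single libraries. Without WT replicate 1 Mrps27 had 0.41 and Mrpl27 had 0.58, without WT replicate 2 Mrpl27, Mrpl48 and Mrpl37 had 0.52, 0.32 and 0.25, and without E17 replicate 1 Mrpl27 had 0.46, none of which passed.

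Mrps34, a small-subunit protein specific to mitochondria, showed the largest fall. The gene lies on chromosome 17 from 24895120 to 24896289. It was at 1.49 and 3.52 RPM at E16 and 2.31 and 3.66 RPM at E17, against 28.3 and 26.4 RPM in WT GSCs. The fetal libraries were all far below the WT libraries, and the lowest held 3 counts. The log2 fold change was -3.38 ± 0.32, with an adjusted p of 1.05e-11 (edgeR), and -0.79 with ERCC scaling, which did not pass. Mrps2, a small-subunit protein with a bacterial homolog that lies on chromosome 2 from 28465951 to 28471177, was at 7.45 and 7.74 RPM at E16 and 12.1 and 8.90 RPM at E17, against 65.6 and 74.5 RPM in WT GSCs. Its groups did not overlap, and its log2 fold change was -3.10 ± 0.19 with an adjusted p of 6.54e-17 (edgeR), and -0.48 with ERCC scaling, which did not pass. Mrpl21, a large-subunit protein with a bacterial homolog, was at 8.94 and 17.6 RPM at E16 and 18.5 and 9.42 RPM at E17, against 70.0 and 76.0 RPM in WT GSCs. All 4 fetal libraries were lower, and the log2 fold change was -2.53 ± 0.20 (adjusted p = 5.93e-14, edgeR).

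Genes that are among the more abundant members in GSCs were also low in fetal cells under TMM scaling. Mrps16, a small-subunit protein with a bacterial homolog, was at 57.1 and 75.3 RPM at E16 and 68.8 and 79.0 RPM at E17, against 348 and 329 RPM in WT GSCs. Mrpl51, a large-subunit protein specific to mitochondria, was at 37.8 and 34.8 RPM at E16 and 36.4 and 37.7 RPM at E17, against 176 and 159 RPM in WT GSCs. No fetal library reached the level of a WT library for either gene. Their log2 fold changes were -2.40 ± 0.11 and -2.33 ± 0.12 (adjusted p = 4.13e-21 and 3.98e-19, edgeR). The next in size were Mrpl43, at -2.30, Mrpl34, at -2.26, Mrpl15, at -2.20, Mrpl50, at -2.15, Mrpl19, at -2.12, Mrpl53, at -2.07, and Mrpl41, a protein near the tunnel exit, at -1.87, all of which passed the test under TMM scaling. Under ERCC scaling the 10 genes from Mrpl21 to Mrpl41 named here as lower had values above 0, from 0.081 for Mrpl21 to 0.77 for Mrpl41.

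**Figure D2:**
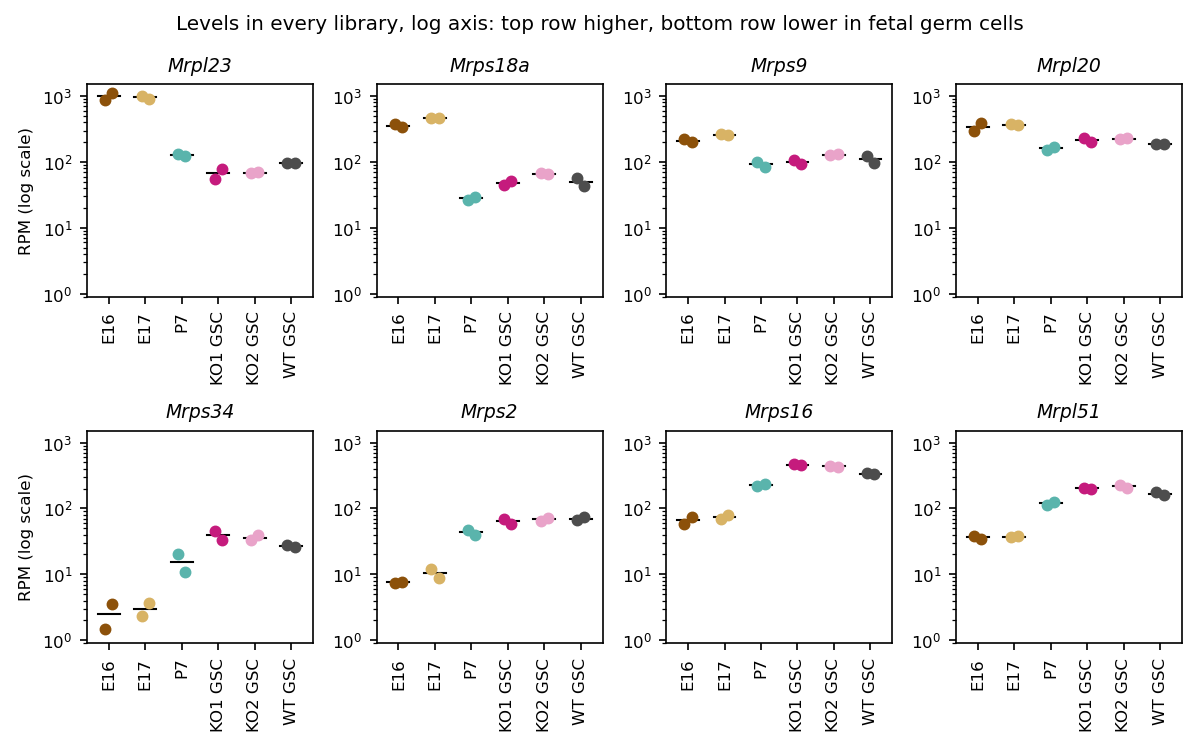
RPM of 8 genes in each library, on a log axis, with a panel for each gene and the groups E16, E17, P7, KO1, KO2 and WT GSC from left to right; points are libraries and short lines are group means. Mrpl23, Mrps18a, Mrps9 and Mrpl20 are highest in the fetal libraries, and Mrps34, Mrps2, Mrps16 and Mrpl51 are lowest there on this scale. With ERCC scaling the log2 fold changes of Mrps16 and Mrpl51 in fetal cells against WT GSCs were above 0, which gives their sign only.

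In RPM, 31 of the 78 genes, or 39.7%, were lower in all 4 fetal libraries than in all 8 other libraries, P7 and knockout GSCs included. Among the 9727 genes with a mean of at least 10 RPM this was so of 31%. The 31 genes comprised 21 of the large subunit, 9 of the small subunit and Mrps36. A further 11 genes, 14.1%, were higher in all 4 fetal libraries than in the other 8, against 20.9% of the 9727 genes. These were Mrpl11, Mrpl16, Mrpl20, Mrpl23, Mrpl37, Mrpl42, Mrpl45, Mrpl48, Mrps9, Mrps11 and Mrps18a, so 9 of the 11 products sit in the large subunit. Among the promoter windows, YY1 elements were in 25% of the 20 windows of genes that rose in fetal cells and in 7.89% of the 38 windows of genes that fell. ETS elements were in 25% and 39.5% of the windows of these groups, NRF1 elements in 5% and 15.8%, SP elements in 45% and 50%, and E-boxes in 10% and 10.5%, with few windows behind each share.

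The summed level of the 78 genes varied much less than that of single genes. It ranged from 9119 to 9647 RPM at E16, 8693 to 8949.9 RPM at E17, 8128 to 8178 RPM at P7, 9795 to 10142 RPM in KO1, 10079.9 to 10261 RPM in KO2 and 9344 to 10019 RPM in WT GSCs. It thus came to 0.813% to 1.03% of non-mitochondrial reads in all 12 libraries. Mrpl23 and Mrps18a together made up 13.7% to 16.3% of this sum in the fetal libraries, against 0.992% to 1.95% in the other 8. Without Mrpl23 and Mrps18a the sum was 7316 to 8203 RPM in the fetal libraries, 7969 to 8026 RPM at P7 and 9205 to 10127 RPM in GSCs. Large-subunit genes made up 71.6% to 74.4% of the full sum in the fetal libraries, against 66.0% to 66.9% in the others. Mrpl23 and Mrps18a are both counted as large-subunit genes in this share, so their rise is part of that difference.

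**Figure D3:**
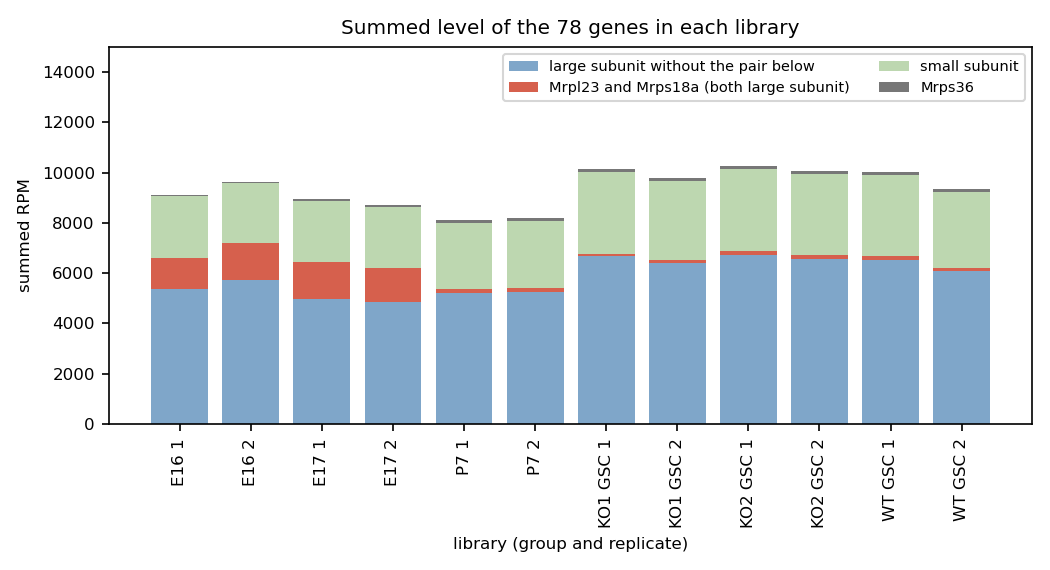
Summed RPM of the 78 genes in each of the 12 libraries as stacked bars, divided into large-subunit genes without Mrpl23 and Mrps18a, these 2 genes, small-subunit genes and Mrps36. The total lies between 8128 and 10261 RPM in all libraries, and the segment of Mrpl23 and Mrps18a is wide in the 4 fetal libraries and thin in the other 8.

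Relative to WT GSCs, most of the differences that passed at P7 were falls, under TMM, library-total and ERCC scaling alike. Against WT GSCs, 39 of the 78 genes fell and 4 rose at P7 under TMM scaling, 27 fell and 6 rose with library totals, and 62 fell and none rose with ERCC scaling (edgeR, adjusted p under 0.05). Over all genes 31% passed, 15% were lower and 16% were higher, whereas 50% of the members were lower and 5.13% were higher. Of the 15827 genes tested, 1740 fell and 3230 rose with library totals, and 4709 fell and 909 rose with ERCC scaling. The median log2 fold change was -0.35 for the members and 0.03 for all genes, and library totals moved the median of all genes by 0.14 and ERCC scaling by -0.46. Of 51 large-subunit genes 27 fell and 3 rose, and of 26 small-subunit genes 12 fell and 1 rose, under TMM scaling. These falls were mostly small, since the largest was -1.35 on the log2 scale. The P7 tables use another gene list than the GSC and fetal tables. P7 cells came from animals and WT GSCs from culture, and the 2 also differed in their transgenes. These differences cannot be told apart here. The libraries of WT GSCs are those used above for the fetal comparison.

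Mrpl21 had the largest fall at P7, with 31.6 and 31.2 RPM at P7, against 70.0 and 76.0 RPM in WT GSCs. Both P7 libraries were below both WT libraries, and the log2 fold change was -1.35 ± 0.20 (adjusted p = 2.51e-06, edgeR). Mrps21, a small-subunit protein with a bacterial homolog, was at 81.9 and 100.1 RPM at P7, against 204 and 186 RPM in WT GSCs. The libraries again did not overlap, and the log2 fold change was -1.23 ± 0.14 (adjusted p = 8.98e-09, edgeR). Mrpl54, specific to mitochondria, changed by -1.26, Mrpl52 by -1.10, Mrpl4 by -1.07, Mrps5, near the mRNA entry of the small subunit, by -0.91, Mrpl38 by -0.90, Mrps23 by -0.85, Mrpl32 by -0.84 and Mrps2 by -0.83. Mrps18a, so high in fetal cells, was at 26.6 and 29.4 RPM at P7, against 57.2 and 42.9 RPM in WT GSCs, lower in both P7 libraries, with a log2 fold change of -0.96 ± 0.16 (adjusted p = 1.38e-05, edgeR). Mrps34 had -0.96, and without P7 replicate 2 it had -0.61 and did not pass. Mrpl23 was at 132 and 123 RPM at P7, against 96.1 and 95.7 RPM in WT GSCs, a log2 fold change of 0.28 ± 0.14 with an adjusted p of 0.125 (edgeR).

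Mrps30, a large-subunit protein specific to mitochondria, showed the largest rise at P7. It was at 76.9 and 80.1 RPM at P7, against 37.3 and 34.1 RPM in WT GSCs. Both P7 libraries were above both WT libraries, and the log2 fold change was 1.01 ± 0.19 (adjusted p = 5.37e-05, edgeR), whereas it was 0.46 with ERCC scaling and did not pass. Mrpl33, a small large-subunit protein with a bacterial homolog, had 0.74 ± 0.16 (adjusted p = 0.000464, edgeR). Mrps6, at 0.53, and Mrpl55, at 0.53, also passed. Without P7 replicate 2 they had 0.47 and 0.41, without WT replicate 2 they had 0.41 and 0.51, and with ERCC scaling they had -0.014 and -0.013, and none of these passed. The count of genes that rose was 2 without P7 replicate 2.

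Between E17 and P7, 56 of the 78 genes passed the test, against 20 between E16 and E17. At P7, 41 of the 78 genes rose and 15 fell relative to E17 under TMM scaling, 35 rose and 20 fell with library totals, and all 78 fell with ERCC scaling (edgeR, adjusted p under 0.05). Over all 14776 genes tested 67.9% passed, 30.2% were higher and 37.8% were lower, against 52.6% and 19.2% of the members. Of the 14776 genes, 3814 rose and 6029 fell with library totals, and 37 rose and 14486 fell with ERCC scaling. The median log2 fold change was 0.52 for the members and -0.13 for all genes under TMM scaling, and the members' median was -4.16 with ERCC scaling, which moved the median of all genes by -4.68. Under TMM scaling 28 of 51 large-subunit genes rose and 12 fell, and 12 of 26 small-subunit genes rose and 3 fell, whereas with ERCC scaling all 51 and all 26 fell. The E17 libraries are part of the fetal group above, and the change of gene list between E17 and P7 cannot be told apart from age.

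Mrps34 had 20.1 and 10.8 RPM at P7, against 2.31 and 3.66 RPM at E17. Both P7 libraries were higher, although they differed from each other, and the log2 fold change was 2.49 ± 0.57 (adjusted p = 0.00138, edgeR). Mrps2 had 46.7 and 39.9 RPM at P7, against 12.1 and 8.90 RPM at E17, with no overlap and a log2 fold change of 2.20 ± 0.30 (adjusted p = 1.65e-05, edgeR). Mrps16 had 218 and 239 RPM at P7, against 68.8 and 79.0 RPM at E17, and Mrpl51 had 114 and 127 RPM at P7, against 36.4 and 37.7 RPM at E17. Both genes were higher in each P7 library, with log2 fold changes of 1.78 ± 0.18 and 1.85 ± 0.19 (adjusted p = 6.2e-07 and 6.84e-07, edgeR). Mrpl41 changed by 2.05, Mrpl15 by 2.01, Mrpl34 by 1.95, Mrpl43 by 1.86, Mrpl19 by 1.75, Mrpl50 by 1.73 and Mrpl49 by 1.70, all past the test. Under ERCC scaling these 11 genes and Mrpl12 were lower at P7 than at E17, with log2 values from -3.0 for Mrpl50 to -2.19 for Mrps34.

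Mrps18a had 26.6 and 29.4 RPM at P7, against 466 and 465 RPM at E17. The P7 libraries were far below, and the log2 fold change was -3.90 ± 0.14 (adjusted p = 5.35e-11, edgeR). Mrpl23 had 132 and 123 RPM at P7, against 992 and 912 RPM at E17, also without overlap, and a log2 fold change of -2.75 ± 0.15 (adjusted p = 2.07e-09, edgeR). Mrps9 had 98.7 and 84.7 RPM at P7, against 265 and 256 RPM at E17, and a log2 fold change of -1.35 ± 0.14 (adjusted p = 7.78e-07, edgeR). Mrps11 changed by -1.22, Mrpl20 by -1.03, Mrpl52 by -0.95, Mrpl9 by -0.89, Mrpl11 by -0.87, Mrpl37 by -0.55 and Mrpl42 by -0.51, all lower at P7 under both TMM and ERCC scaling. Mrpl48 had -0.61 and without E17 replicate 1 -0.50, which did not pass. Mrps31 had -0.81 and did not pass without E17 replicate 1 (-0.75), P7 replicate 1 (-0.82) or P7 replicate 2 (-0.75).

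From one fetal day to the next the differences were smaller and depended on the scaling. At E17, 20 of the 78 genes fell and none rose relative to E16 under TMM scaling, 4 fell and 2 rose with library totals, and all 78 rose with ERCC scaling (edgeR, adjusted p under 0.05). Over all genes 6.6% passed, 4.96% were lower and 1.64% higher under TMM scaling, against 25.6% and 0% of the members. Of the 14776 genes tested, 243 fell and 1332 rose with library totals, and 2 fell and 14506 rose with ERCC scaling. The members' median log2 fold change was -0.41, against 0.01 for all genes. It was -0.07 with library totals, which moved the median of all genes by 0.34, and 2.62 with ERCC scaling, which moved it by 3.02. The 20 genes comprised 16 of 51 large-subunit genes and 4 of 26 small-subunit genes. The count was 3 without E17 replicate 1, 3 without E17 replicate 2 and 43 without E16 replicate 1. Erythroid markers summed to 56.6 to 60.7 RPM at E17 and 106 to 241 RPM at E16, and fibroblast and myoid markers to 298 to 312 RPM at E17 and 164 to 176 RPM at E16. Among the 7 fibroblast and myoid genes tested, 1 was higher and 0 were lower at E17 under TMM scaling, and 3 had values below 0. Among the 4 erythroid genes tested, 2 were lower and 0 were higher. Whether erythroid, fibroblast or myoid cells have a part in the difference was not tested.

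Mrpl16, a large-subunit protein near the peptidyl transferase centre, was at 134 and 118 RPM at E17, against 223 and 245 RPM at E16. Both E17 libraries were below both E16 libraries, and the log2 fold change was -1.24 ± 0.15 (adjusted p = 0.00018, edgeR). It passed without each library in turn and with library totals, and had 1.80 with ERCC scaling. Mrpl12, the stalk protein that recruits translation factors and has also been reported to bind the mitochondrial RNA polymerase, was at 25.4 and 33.0 RPM at E17, against 52.7 and 50.7 RPM at E16. Its E17 libraries were both lower, with a log2 fold change of -1.15 ± 0.21 (adjusted p = 0.00388, edgeR), and -0.98 without E17 replicate 1, which did not pass. Mrpl40 and Mrpl54, specific to mitochondria, each changed by -1.02, Mrpl47 by -0.97, Mrpl14 by -0.87 and Mrps33 by -0.84. Mrps24, Mrpl39, Mrps6, Mrpl35 and Mrpl17 lay between -0.77 and -0.70. Of these 10 genes, Mrpl40 did not pass without E17 replicate 1 (-0.89), Mrpl47 and Mrps33 did not pass without E17 replicate 2 (-0.84 and -0.72), and the other 7 passed neither without E17 replicate 1 nor without E17 replicate 2, with values from -1.15 to -0.60. With library totals, Mrpl12, Mrpl16, Mrpl40 and Mrpl47 passed and the other 8 of the 12 named did not.

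**Figure D4:**
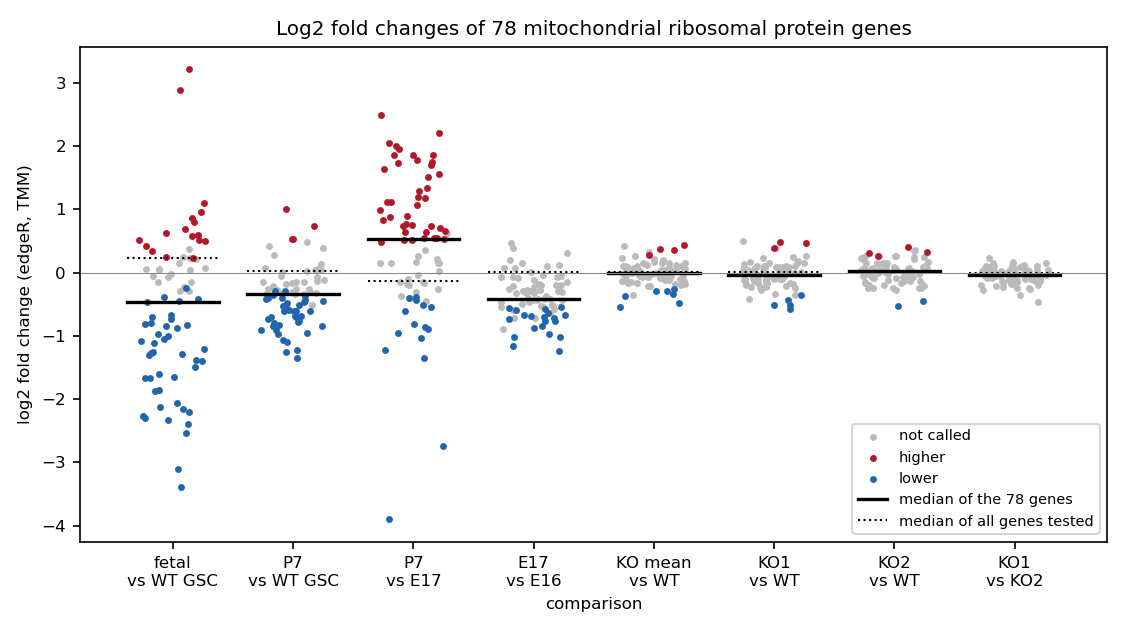
Log2 fold change of each of the 78 genes in 8 comparisons under TMM scaling; points are genes, coloured where the gene passed the test as higher or lower, and lines mark the median of the 78 genes and of all genes tested. The spread is wide between fetal germ cells and WT GSCs and between P7 and E17, and narrow among GSCs; with ERCC scaling the medians of the comparisons E17 against E16, P7 against E17 and fetal against WT GSC lie on the other side of 0.

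Few of the genes differed between Stag3 KO and WT GSCs, and the direction of the balance depended on the scaling. As the mean of both lines against WT, 7 of the 78 genes fell and 4 rose under TMM scaling, 4 fell and 7 rose with library totals, and 3 fell and 3 rose with ERCC scaling or DESeq2 (edgeR otherwise, adjusted p under 0.05). Over all 11890 genes tested 19.2% passed, 10.6% were lower and 8.64% were higher, and the members' shares were 8.97% and 5.13%. Of the 11890 genes, 1052 fell and 1291 rose with library totals. With ERCC scaling 878 fell and 569 rose, and with DESeq2 631 fell and 452 rose. The median log2 fold change was -0.01 for the members and 0.00 for all genes. The split moved with single libraries of the 6: 2 genes fell and 6 rose without WT replicate 1, 12 fell and 2 rose without WT replicate 2, and 3 fell and 8 rose without KO1 replicate 2. Of the 51 large-subunit genes 5 fell and 3 rose, and of the 26 small-subunit genes 2 fell and 1 rose, under TMM scaling, whereas with library totals 4 fell and 5 rose among the first and none fell and 2 rose among the second. Among markers, 5 of the 6 tested fibroblast and myoid genes and 4 of the 7 germ cell genes were lower in the knockouts, and of the 5 Sertoli cell genes 2 were higher and 1 was lower. Fibroblast and myoid markers summed to 28.6 to 46.2 RPM in the knockouts, against 88.0 to 89.0 RPM in WT. Germ cell markers summed to 3179 to 3717 RPM in the knockouts, against 3345 to 3651 RPM in WT, and Sertoli cell markers to 41.9 to 63.6 RPM in the knockouts, against 32.9 to 35.9 RPM in WT. The part of these cells in the calls was not tested.

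Mrpl23 had the largest fall in the knockouts. It was at 55.6 and 79.3 RPM in KO1 and 67.5 and 70.2 RPM in KO2, against 96.1 and 95.7 RPM in WT. All 4 knockout libraries were below both WT libraries, and the log2 fold change was -0.55 ± 0.12 (adjusted p = 0.000181, edgeR). Mrps16 was at 466 and 453 RPM in KO1 and 446 and 424 RPM in KO2, against 348 and 329 RPM in WT. All 4 knockout libraries were above both WT libraries, and the log2 fold change was 0.35 ± 0.07 (adjusted p = 6.89e-05, edgeR). Mrpl41 was at 164 and 164 RPM in KO1 and 154 and 158 RPM in KO2, against 124 and 106 RPM in WT, again without overlap, and its log2 fold change was 0.43 ± 0.09 (adjusted p = 0.000242, edgeR). These 3 genes passed under all 13 alternatives, the leaving out of each of the 6 libraries among them.

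The other 8 genes that passed each lost the call under at least 1 alternative. Mrpl57 had 0.37, and 0.22 without WT replicate 2. Mrpl34 and Mrpl45, the second of which tethers the ribosome to the inner membrane, had -0.48 and -0.37, and -0.36 and -0.33 without WT replicate 1. Mrpl51 had 0.27, 0.23 without KO2 replicate 1 and 0.16 without WT replicate 2. Mrpl14 had -0.30, -0.25 without KO1 replicate 2 and -0.28 without KO2 replicate 1. None of these values without a library passed, and some of these genes also lost the call under another scaling or tool. Mrpl36, at -0.34, had -0.35 without KO1 replicate 1, -0.33 without KO1 replicate 2, -0.33 without KO2 replicate 2 and -0.22 without WT replicate 1. Mrps10, at -0.30, had -0.28 without KO1 replicate 1, -0.32 without KO1 replicate 2, -0.25 without KO2 replicate 2 and -0.24 without WT replicate 1. Mrps5, at -0.26, had -0.28 without KO1 replicate 1, -0.24 without KO1 replicate 2, -0.26 without KO2 replicate 1, -0.29 without KO2 replicate 2 and -0.17 without WT replicate 1. None of these passed either.

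**Figure D5:**
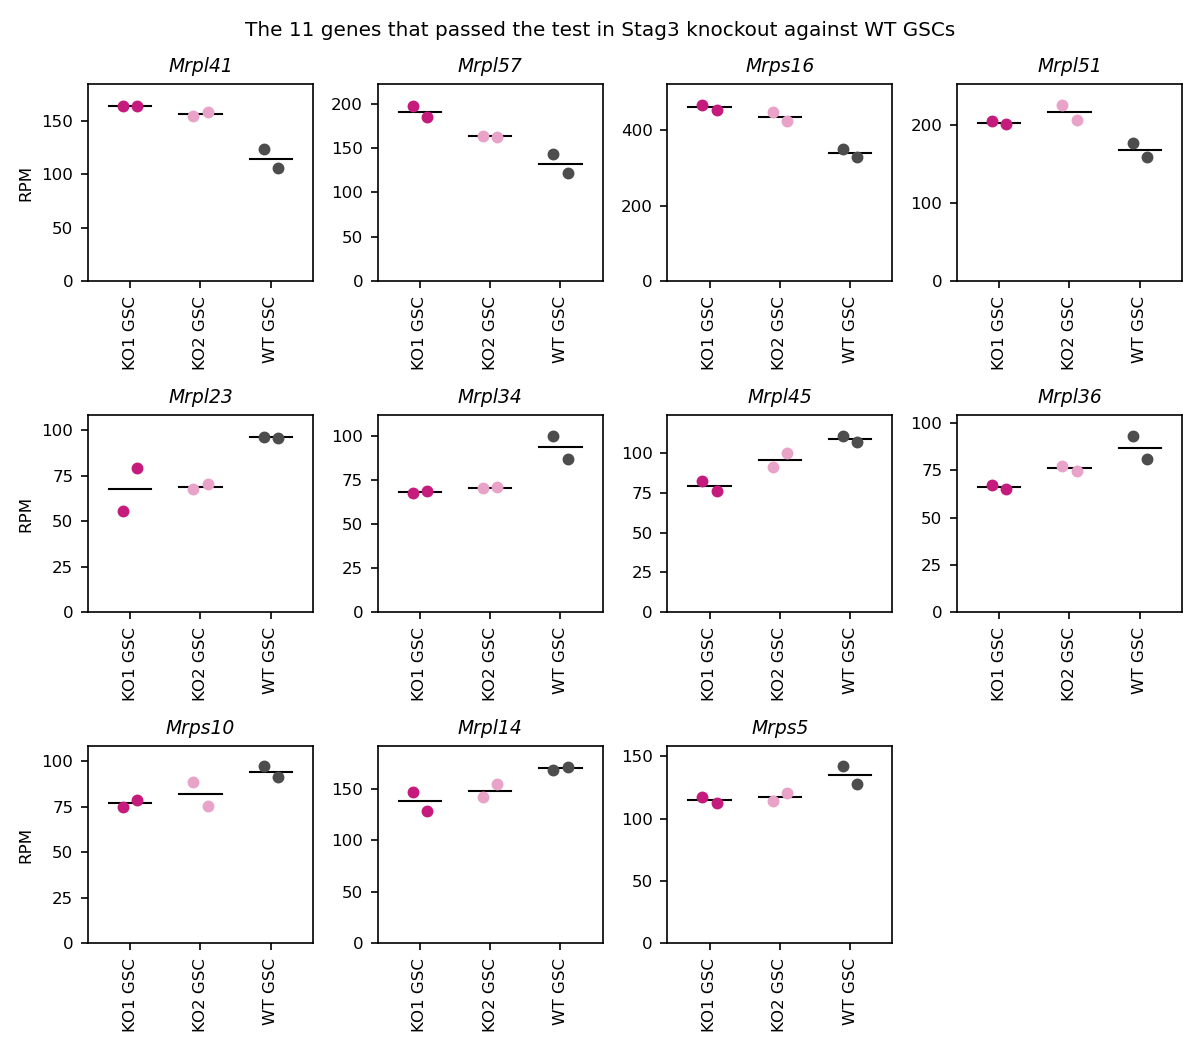
RPM in each GSC library of the 11 genes that passed the test between the mean of both Stag3 KO lines and WT, with KO1, KO2 and WT from left to right; points are libraries and short lines are group means. Mrpl23 lies lower and Mrps16 and Mrpl41 lie higher in all 4 knockout libraries than in both WT libraries; with library totals in place of TMM scaling the split over all 78 genes was 7 higher and 4 lower in place of 4 higher and 7 lower.

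Taken line by line, 5 genes fell and 3 rose in KO1 against WT under TMM scaling, 5 fell and 5 rose with library totals, and 5 fell and none rose with ERCC scaling. Of all genes 13.6% passed in KO1, 7.4% lower and 6.24% higher. Of the 11890 genes tested, 733 fell and 952 rose in KO1 with library totals, and 849 fell and 297 rose with ERCC scaling. Without WT replicate 2 the total was 15 genes and without KO1 replicate 1 it was 5. In KO2 against WT 2 genes fell and 4 rose under TMM scaling, 2 fell and 6 rose with library totals, and none fell and 2 rose with ERCC scaling. Of all genes 15.6% passed in KO2 under TMM scaling, 8.45% lower and 7.19% higher. Among all genes 847 fell and 1039 rose in KO2 with library totals, and 495 fell and 696 rose with ERCC scaling. The total of 6 genes in KO2 was 0 without KO2 replicate 1 (edgeR, with 8 at an unadjusted p under 0.05), 2 without KO2 replicate 2 and 10 without WT replicate 1. The lines share the WT libraries. Their values for Mrpl23 were -0.57 ± 0.14 in KO1 and -0.53 ± 0.14 in KO2, for Mrps16 0.39 ± 0.08 and 0.31 ± 0.08, and for Mrpl41 0.47 ± 0.11 and 0.40 ± 0.11 (log2 fold change and SE, edgeR). Without KO1 replicate 1 the KO1 value of Mrpl23 was -0.33, and without KO2 replicate 1 the KO2 values of Mrpl23 and Mrps16 were -0.51 and 0.26, none of which passed. The KO2 value of Mrpl41 did not pass without KO2 replicate 1 (0.40), KO2 replicate 2 (0.37) or WT replicate 2 (0.25). The other genes that passed in KO1 were Mrpl57 at 0.48 ± 0.10, Mrpl45 at -0.51 ± 0.13, Mrpl34 at -0.51 ± 0.14, Mrpl36 at -0.44 ± 0.14 and Mrpl14 at -0.35 ± 0.10. Of these, Mrpl45 did not pass at -0.45 without KO1 replicate 2, Mrpl14 at -0.25 without KO1 replicate 2, Mrpl34 at -0.50 without KO1 replicate 1, -0.51 without KO1 replicate 2 and -0.39 without WT replicate 1, nor Mrpl36 at -0.47 without KO1 replicate 1, -0.41 without KO1 replicate 2 and -0.32 without WT replicate 1. The other genes that passed in KO2 were Mrpl51 at 0.32 ± 0.10, Mrpl13, a large-subunit protein with a bacterial homolog, at 0.26 ± 0.09, and Mrpl34 at -0.45 ± 0.13. Mrpl51 did not pass at 0.24 without KO2 replicate 1, 0.37 without KO2 replicate 2 and 0.21 without WT replicate 2, Mrpl13 at 0.27 without KO2 replicate 1, 0.22 without KO2 replicate 2 and 0.20 without WT replicate 2, nor Mrpl34 at -0.46 without KO2 replicate 1, -0.47 without KO2 replicate 2 and -0.34 without WT replicate 1.

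When KO1 was set directly against KO2, 0 of the 78 genes passed in edgeR, with 8 at an unadjusted p under 0.05, and 0 in DESeq2, with 2 at an unadjusted p under 0.05, while 0.833% of all genes passed in edgeR. Mrps18a had the lowest value between the lines, with 45.0 and 51.3 RPM in KO1, against 67.0 and 65.2 RPM in KO2, and a log2 fold change of -0.46 ± 0.16 (adjusted p = 0.212, edgeR).

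Members with well-known roles are given here for each stage. Mrps12, at the decoding centre, was at 127 and 136 RPM at E16, 101 and 128 RPM at E17, 85.5 and 105 RPM at P7 and 114 and 121 RPM in WT GSCs. It passed in P7 against WT GSCs, at -0.43 ± 0.14, and not in fetal cells against WT GSCs, at -0.07 ± 0.12. Mrps7, which binds the small ribosomal RNA, was within -0.29 and 0.10 on the log2 scale in all 8 comparisons under TMM scaling and passed in none of them. Mrpl58, a peptidyl-tRNA hydrolase that rescues stalled ribosomes, was at 53.7 and 64.8 RPM at E16, 56.6 and 36.1 RPM at E17, 92.1 and 87.2 RPM at P7 and 81.4 and 74.0 RPM in WT GSCs. Its log2 fold change was -0.70 in fetal cells against WT GSCs and 1.11 at P7 against E17, both past the test under TMM scaling. Mrpl12 had -1.60 ± 0.13 in fetal cells against WT GSCs and 1.86 ± 0.20 at P7 against E17, both past the test, and -0.30 ± 0.14 at P7 against WT GSCs, which did not pass. Mrpl10, to which Mrpl12 binds in the stalk, had -1.67 ± 0.19 in fetal cells and -0.79 ± 0.20 at P7 against WT GSCs, both past the test, and Mrpl11, beside them at the stalk base, had 0.69 ± 0.14 and -0.45 ± 0.16, both past the test with opposite signs. Mrpl1, of the other stalk, had -0.29 ± 0.14 in fetal cells against WT GSCs and did not pass, and 0.55 ± 0.17 at P7 against E17, which passed.

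Mrpl44, a subunit related to RNase III, had -0.87 ± 0.12 in fetal cells and -0.46 ± 0.13 at P7 against WT GSCs, both past the test. Mrps22, a small-subunit protein specific to mitochondria, had -0.15 ± 0.10 in fetal cells, which did not pass, and -0.69 ± 0.12 at P7, which did. Mrps36, whose product is no ribosomal subunit, was at 48.2 and 62.3 RPM at E16, 63.0 and 54.4 RPM at E17, 117 and 103 RPM at P7 and 119.5 and 131 RPM in WT GSCs. All 4 fetal libraries were below the WT libraries, and its log2 fold change was -1.26 ± 0.13 (adjusted p = 6.66e-11, edgeR). In the knockouts against WT it had 0.03 ± 0.10 and did not pass. Mrps28, the gene of the lowest level, was at 18.4 and 24.6 RPM at E16, 14.4 and 22.5 RPM at E17, 10.2 and 14.2 RPM at P7 and 10.9 and 17.4 RPM in WT GSCs, and passed in no comparison.

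Other genes of mitochondrial translation and of mitochondrial DNA were read from 5 lists, with 59 genes tested in all. These were subunits with other names, ribosome assembly factors, translation factors, mitochondrial tRNA synthetases, and factors of mitochondrial DNA transcription or replication. The last list held Polg and Twnk, which act in replication. The list of assembly factors also held Lrpprc and its partner Slirp, which act on mitochondrial mRNAs. In fetal cells against WT GSCs 30 fell and 10 rose under TMM scaling, 27 fell and 15 rose with library totals, and none fell and 54 rose with ERCC scaling. Over all genes 32.3% were lower and 41.9% higher there under TMM scaling. Counts of all genes under library totals and ERCC scaling are given above for each comparison. The counts under TMM scaling, fallen and risen, were 3 and 0 of 4 other-named subunits, 9 and 5 of 20 assembly factors and 7 and 3 of 12 translation factors. They were 7 and 2 of 17 tRNA synthetases and 4 and 0 of 6 factors of mitochondrial DNA transcription or replication. Ddx28, a helicase of large-subunit assembly, was at 2.98 and 2.46 RPM at E16 and 2.89 and 0.523 RPM at E17, against 15.5 and 15.9 RPM in WT GSCs, with a log2 fold change of -3.01 ± 0.36 (adjusted p = 3.69e-09, edgeR). Rars2, the mitochondrial arginyl-tRNA synthetase, had -2.56 ± 0.20 and Mtif2, the initiation factor that brings the first tRNA, had -2.47 ± 0.29. Mrm1, which methylates the large ribosomal RNA, rose by 1.90 ± 0.35, Lrpprc, which stabilises mitochondrial mRNAs, by 1.51 ± 0.13 and Noa1, a GTPase of small-subunit assembly, by 1.21 ± 0.15. Lrpprc was at 155 and 142 RPM at E16 and 169 and 190.0 RPM at E17, against 52.5 and 51.3 RPM in WT GSCs, higher in all 4 fetal libraries.

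At P7 against E17, 25 of the 59 genes rose and 9 fell under TMM scaling, 22 rose and 15 fell with library totals, and none rose and 58 fell with ERCC scaling. Over all genes 30.2% were higher and 37.8% lower there under TMM scaling. Ddx28 had 3.33 ± 0.62, Mrm2, another RNA methyltransferase, 2.07 ± 0.57 and Malsu1, an assembly factor of the large subunit, 1.90 ± 0.22, and Mrm1 had -1.85 ± 0.35, Noa1 -1.34 ± 0.17 and Lrpprc -1.20 ± 0.15, all past the test. At P7 against WT GSCs 11 fell and 2 rose under TMM scaling, 8 fell and 4 rose with library totals, and 28 fell and none rose with ERCC scaling. Over all genes 15% were lower and 16% higher there under TMM scaling. Aurkaip1, a small-subunit protein under another name, had -1.32 ± 0.13, Slirp, the partner of Lrpprc, -1.11 ± 0.12 and Tfb2m, which opens mitochondrial promoters, -0.73 ± 0.22, whereas Mtfmt, which formylates the initiator tRNA, had 1.1 ± 0.21 and Nars2, a tRNA synthetase, 0.85 ± 0.18. At E17 against E16 5 fell and none rose under TMM scaling, none fell and 6 rose with library totals, and 58 rose with ERCC scaling. Over all genes 4.96% were lower and 1.64% higher there under TMM scaling. The largest falls were -0.96 ± 0.23 for Gadd45gip1, a large-subunit protein under another name, -0.85 ± 0.23 for Malsu1 and -0.75 ± 0.19 for Vars2, the valyl-tRNA synthetase. In the knockouts against WT 3 fell and none rose under TMM scaling, 2 fell and 1 rose with library totals, and 2 fell and none rose with ERCC scaling. The 3 were Vars2, at -0.59 ± 0.15, Rbfa, which matures the small subunit, at -0.41 ± 0.11, and Tufm, the elongation factor that delivers tRNAs, at -0.21 ± 0.08. Of all genes 10.6% were lower and 8.64% higher in the knockouts under TMM scaling. The median log2 fold change of the 59 genes was -0.03 in the knockouts, against 0.00 for all genes.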

How the data were processed

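Each of the 12 libraries has 1 deposited table without a header. Salmon 1.4.0, HTSeq 0.9.1, TopHat2 2.1.1 and cutadapt 1.18 are named with build GRCm38.p6 in the submitters' processing notes, without their roles. The deposited whole-number read counts per gene were used in all tests, with the libraries as deposited and not pooled. The authors also deposited RPM values computed from those counts with a total that leaves out mitochondrial, spike-in and transgene rows, and the RPM given here were recomputed from the counts with that total.

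Samples were grouped by title. For WT GSCs the titles and the file names number the replicates in opposite order, and the titles were used. The list for GSC and fetal libraries has 35652 genes and the list for P7 has 34896, and 31685 Entrez IDs are in both. For GSC and fetal libraries 10 genes have blank counts, among them Dap3, which encodes a small-subunit protein and was not analysed here, and 214 are blank at P7. Blank genes, ERCC and transgene rows stayed out of the tests, and ERCC took 0.194% to 5.85% of counts.

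Tests used edgeR 4.0.16 in R 4.3.3 (quasi-likelihood, TMM, filterByExpr by group, Benjamini-Hochberg over all genes tested, adjusted p threshold 0.05), with 1 fit of the 6 GSC libraries, 1 of the 6 libraries in vivo and 1 of all 12 libraries for comparisons between them. The SE is the log2 fold change divided by the square root of the F statistic. The fits were tested on simulated data. Alternatives were DESeq2 1.42.0, RLE, ERCC and library-total scaling (the last chosen after seeing the data), no filter on low counts, a replicate block, 1 fit of all libraries, members without overlapping genes, and each library left out, which where it leaves a group with 1 library assumes that this library varies like the other groups. The members and lists were chosen with earlier results of these data known. Named genes were the members past the threshold whose libraries do not overlap between the sides, up to 12 with the largest rise and 12 with the largest fall per comparison, members with textbook roles, the members with the lowest and highest mean, and up to 3 per direction of the other mitochondrial translation lists. Genes called in 1 knockout line were named by the same rule.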

Additional observations from a re-analysis of the deposited data

How the results depend on the processing

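The precision is limited by 2 libraries per group and by 1938644 to 4596607 counts per library. Replicate numbers do not pair the samples: deviations of same-numbered libraries from their group means correlated at -0.05 to 0.06. With a replicate block 13, 10, 8 and 0 members were called in the knockout mean, KO1, KO2 and KO1 against KO2, 31 in E17 against E16, 57 in P7 against E17, 61 in fetal cells and 44 at P7 against WT GSCs. In 1 fit of all libraries E17 against E16 had 36, the knockout mean 6, KO1 5 and KO2 1. With DESeq2 the knockout mean had 6 and KO2 3. With ERCC scaling E17 against E16 had 78, the knockout mean 6, KO1 5 and KO2 2, and with library totals E17 against E16 had 6. Without members that overlap another gene, which leaves 53, P7 against E17 had 37. Leaving out 1 library each gave 8 to 14 for the knockout mean, 5 to 15 for KO1, 0 to 10 for KO2, 0 to 0 for KO1 against KO2, 3 to 43 for E17 against E16, 43 to 49 for P7 against E17, 53 to 63 for fetal cells and 33 to 38 for P7 against WT GSCs.

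Members' median log2 fold changes that changed sign were, with ERCC scaling, 2.62 in E17 against E16, -4.16 in P7 against E17 and 2.18 in fetal cells. The median of the knockout mean was 0.033 with library totals, and -0.081 (without WT replicate 2) to 0.069 (without WT replicate 1) when 1 library was left out, with 0.0065 without KO1 replicate 2 and 0.015 without KO2 replicate 2. In KO1 it was 0.0095 with library totals and -0.11 (without WT replicate 2) to 0.045 (without WT replicate 1) when 1 library was left out, and in KO2 -0.046 (without WT replicate 2) to 0.080 (without WT replicate 1), with -0.020 without KO2 replicate 1. Under TMM scaling 68 of the 78 members had values below 0 in E17 against E16, and all 78 rose with ERCC scaling. In P7 against E17, 51 had values above 0, and all 78 fell with ERCC scaling. The genes listed next are therefore only those named above for the size of their change. Among these named genes, single ones changed sign under ERCC scaling alone. In E17 against E16 these were Mrpl12 (1.85), Mrpl14 (2.20), Mrpl16 (1.80), Mrpl17 (2.31), Mrpl35 (2.33), Mrpl39 (2.24), Mrpl40 (2.02), Mrpl47 (2.05), Mrpl54 (2.0), Mrps6 (2.25), Mrps24 (2.26) and Mrps33 (2.20). In P7 against E17 they were Mrpl12 (-2.81), Mrpl15 (-2.68), Mrpl19 (-2.95), Mrpl34 (-2.72), Mrpl41 (-2.63), Mrpl43 (-2.81), Mrpl49 (-2.97), Mrpl50 (-3.0), Mrpl51 (-2.82), Mrps2 (-2.50), Mrps16 (-2.89) and Mrps34 (-2.19). In fetal cells they were Mrpl15 (0.44), Mrpl19 (0.53), Mrpl21 (0.081), Mrpl34 (0.35), Mrpl41 (0.77), Mrpl43 (0.34), Mrpl50 (0.50), Mrpl51 (0.31), Mrpl53 (0.53) and Mrps16 (0.22), and at P7 against WT GSCs Mrpl55 (-0.013) and Mrps6 (-0.014). The ERCC share of counts differs among the groups in vivo, and beyond that the cause of these changes was not tested.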

Other observations

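Cytoplasmic ribosomal protein genes, which encode the ribosome of the cytoplasm, and nuclear genes of oxidative phosphorylation, whose partners the mitoribosome makes, were counted in the same fits. In the Stag3 KO mean against WT GSCs, 35 of 84 cytoplasmic genes fell and 3 rose under TMM scaling, with a median log2 fold change of -0.14, 25 fell and 4 rose with library totals, and 8 fell and 1 rose with ERCC scaling. Of 81 oxidative phosphorylation genes 8 fell and 10 rose under TMM scaling, 6 fell and 13 rose with library totals, and 1 fell and 2 rose with ERCC scaling. In the same comparison 7 of the 78 mitochondrial ribosomal genes fell and 4 rose under TMM scaling, and 4 fell and 7 rose with library totals. Over all genes 10.6% were lower and 8.64% higher there under TMM scaling.

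At E17 against E16, 78 of 85 cytoplasmic genes fell and none rose under TMM scaling, with a median of -0.88, 67 fell and none rose with library totals, and 84 rose and 1 fell with ERCC scaling. Of 82 oxidative phosphorylation genes 37 fell and none rose under TMM scaling, 11 fell and 3 rose with library totals, and 82 rose with ERCC scaling. In fetal germ cells against WT GSCs, 58 of the 82 fell and 10 rose under TMM scaling, 54 fell and 13 rose with library totals, and 2 fell and 77 rose with ERCC scaling, while of the 85 cytoplasmic genes 32 fell and 36 rose under TMM scaling, 28 fell and 44 rose with library totals, and none fell and 83 rose with ERCC scaling. At P7 against WT GSCs, 64 of the 82 oxidative phosphorylation genes fell and none rose under TMM scaling, and 76 fell and none rose with ERCC scaling, and of the 85 cytoplasmic genes 53 fell and 8 rose, and 76 fell and 2 rose with ERCC scaling. Over all genes under TMM scaling, 4.96% were lower and 1.64% higher at E17 against E16. Against WT GSCs the shares of all genes were 32.3% and 41.9% in fetal cells and 15% and 16% at P7. The cytoplasmic genes' shares in fetal cells, 37.6% lower and 42.4% higher, lay near those of all genes. These groups of genes were not tested against each other.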
